A study of Homo sapiens with 17 samples.

Results

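The interferon-induced transmembrane proteins IFITM1, IFITM2 and IFITM3 were followed over a time course in which an active form of the NOTCH3 receptor was switched on in neuroblastoma cells. All probe sets annotated to any of these 3 genes were taken, which gave 4 of the 54675 probe sets on the arrays. Of these, 1 probe set read IFITM1 (214022_s_at), 1 read IFITM2 (201315_x_at), 1 read IFITM3 (212203_x_at), and 1 was annotated to IFITM1 and IFITM2 together (201601_x_at). The genes were picked because their intensities over these same arrays were known to change. Their values are therefore given as a description, without a test.

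IFITM proteins are small membrane proteins that act in cell-autonomous defence against enveloped viruses. IFITM3, and IFITM2 to a lesser degree, are found largely in endosomes and lysosomes, whereas IFITM1 is found more at the cell surface, and all of them hinder the fusion of viral and cellular membranes. Their genes lie in a cluster on chromosome 11 and are classical targets of interferon signalling, in which JAK kinases and STAT proteins bind response elements in target promoters together with IRF9. They are expressed in many cells without added interferon, and IFITM1 was described early on as a leukocyte surface antigen.

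The cells were IMR32, an established human neuroblastoma line with an amplified MYCN gene, carrying NOTCH3IC, the intracellular and active part of NOTCH3, under doxycycline control. There were 2 clones, c6 and c8, both grown in DMEM with fetal calf serum and both given doxycycline. Clone c6 was profiled at times 0, 4, 8, 12, 24, 48, 72, 96 and 120, and clone c8 at the same times up to 96, with 1 array for each clone and time (17 arrays). No unit is stated for these times, nor whether the times of a clone were separate cultures, so the spread between arrays may be partly technical. Neither a doxycycline-treated culture without the transgene nor a culture kept without doxycycline after time 0 was analysed here, so time in culture, doxycycline and NOTCH3IC cannot be told apart. Each of c6 and c8 is 1 clone, so a difference between them is one between 2 single clones.

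The values were scaled intensities, and log2 values are of the intensity plus 16. Times 4, 8 and 12 are called early and times 48, 72 and 96 late, and both are set against time 0 of the same clones. The NOTCH3 probe set read 94.6 at time 0 and 428.4 ± 37.1 (SD, n = 3) late in c6, and 218.3 and 777.6 ± 67.6 (SD, n = 3) in c8. Whether it reads the NOTCH3IC transgene, the cells' own NOTCH3 or both was not tested. Array medians lay between 14.6 and 19.3, and the 3' to 5' signal ratio of GAPDH, a sign of RNA integrity, lay between 0.93 and 1.12 on all 17 arrays. The same ratio of actin lay between 1.22 and 1.49 on the arrays of clone c6 and between 1.56 and 1.70 on those of clone c8, without overlap, and its part in differences between the clones was not tested. The GAPDH ratio ranged from 0.987 to 1.12 on the 6 arrays of times 0, 4 and 8 and from 0.93 to 1.07 on the 9 arrays from time 24 on.

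The promoters of IFITM1 and IFITM3 are shown because the pathway genes described further on are known for interferon response elements close to their transcript starts. The sequences are the 250 bases before the annotated start, from RefSeq on GRCh38.p14, written 5′ to 3′ along the gene. Capitals mark matches to the core of the interferon-stimulated response element, which is GAAA, then 2 bases of any kind, then GAAA. IFITM1 lies on the plus strand (chr11:313790-314039) and IFITM3 on the minus strand (chr11:320861-321110).
IFITM1: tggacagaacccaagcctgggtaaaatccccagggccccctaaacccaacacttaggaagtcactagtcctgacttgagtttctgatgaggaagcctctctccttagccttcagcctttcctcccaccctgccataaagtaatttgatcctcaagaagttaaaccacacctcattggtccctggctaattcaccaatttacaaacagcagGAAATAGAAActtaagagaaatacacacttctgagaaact
IFITM3: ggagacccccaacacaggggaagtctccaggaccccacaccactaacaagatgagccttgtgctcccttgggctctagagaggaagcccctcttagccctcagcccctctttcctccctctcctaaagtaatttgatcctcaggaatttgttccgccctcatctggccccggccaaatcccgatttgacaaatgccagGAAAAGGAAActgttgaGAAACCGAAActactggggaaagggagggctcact

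Both strands of the whole window, which runs on for 50 bases past the start, were searched for 5 motifs. IFITM1 held GAAATAGAAA from 40 to 31 bases before the start and GAAACTGAAA from 6 bases before the start to the base 4 of the transcript, which runs past the end of the stretch printed. IFITM3 held GAAAAGGAAA from 52 to 43 and GAAACCGAAA from 35 to 26 bases before the start. This core occurred in 1255 of 35116 promoters of the same length (3.57%). The gamma-activated site pattern TTCNNNGAA occurred in the IFITM1 window as TTCTGAGAA, 12 to 4 bases before the start, and shares 3 bases with GAAACTGAAA. It was found in 7.66% of all promoters. The RBPJ core TGGGAA, the sequence bound by the DNA-binding partner of NOTCH3IC, is in 24.0% of all promoters, and the HEY and HES sites CACGTG and CACGCG are in 7.26% and 11.4%. None of these last 3 patterns occurred in either IFITM window, which says only that these letters are not in it. The 2 upstream stretches were identical at 179 of 268 aligned columns (66.8%).

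**Figure D1:**
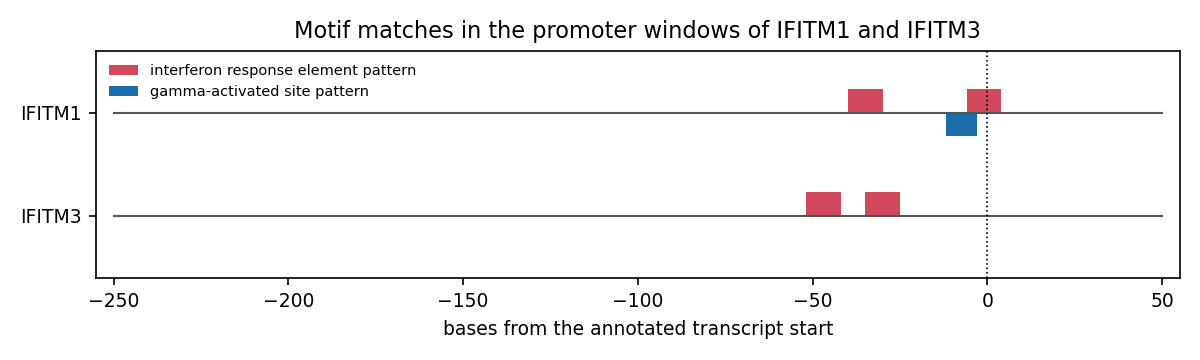
Positions of motif matches in the promoter windows of IFITM1 and IFITM3, in bases from the annotated transcript start (dotted line). Boxes above the line are matches to the interferon response element core, 2 in each gene, and the box below it is the single match to the gamma-activated site pattern TTCNNNGAA.

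IFITM1 was low in both clones up to time 8. In clone c6 its probe set read 40 at time 0, 51.2 at time 4, 46.2 at time 8 and 83.0 at time 12, then 246.9 at time 24, 227.5 at time 48, 135.8 at time 72, 195.5 at time 96 and 193.6 at time 120. In clone c8 it read 58.6, 65.3 and 90.4 at times 0, 4 and 8, then 383.7 at time 12, 354.9 at time 24, 151.1 at time 48, 171.9 at time 72 and 248.1 at time 96. The arrays from time 24 on did not overlap with those of times 0, 4 and 8 in either clone. The highest array was time 24 in c6 and time 12 in c8, and in both clones the arrays after time 24 were all below that peak. The late mean stood 1.63 above time 0 on the log2 scale (3.10-fold; SD 0.375 over 6 arrays), 1.82 in c6 and 1.44 in c8.

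IFITM2 started at nearly the same reading in both clones and ended highest at the last times. In clone c6 it read 182.9 at time 0, 138.8 at time 4, 209.0 at time 8 and 209.4 at time 12, then 696.8 at time 24, 735.1 at time 48, 891.3 at time 72, 1277.4 at time 96 and 1416.7 at time 120. In clone c8 it read 185.8, 155.9 and 231.0 at times 0, 4 and 8, then 1203.2 at time 12, 1229.5 at time 24, 1026.8 at time 48, 1380.0 at time 72 and 1517.1 at time 96. At time 4 both clones were below their own time 0, and from time 24 on every array was above all arrays of times 0, 4 and 8. In clone c6 each array from time 24 on was above the one before it, while clone c8 dipped at time 48. The late mean was 2.48 above time 0 (5.59-fold; SD 0.389 over 6 arrays), with 2.27 in c6 and 2.69 in c8.

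IFITM3 moved like IFITM2 up to time 24 and then stayed on a plateau. In clone c6 it read 416.8 at time 0, 362.5 at time 4, 447.9 at time 8 and 545.7 at time 12, then 1460.5 at time 24, 1204.4 at time 48, 1207.4 at time 72, 1699.6 at time 96 and 1646.5 at time 120. In clone c8 it read 437.6, 426.4 and 489.5 at times 0, 4 and 8, then 1494.8 at time 12, 1599.3 at time 24, 1133.7 at time 48, 1664.1 at time 72 and 1616.6 at time 96. Time 48 was the lowest array after time 24 in both clones, and again no array from time 24 on overlapped with times 0, 4 and 8. The late mean was 1.68 above time 0 (3.20-fold; SD 0.263 over 6 arrays), 1.66 in c6 and 1.69 in c8, the closest match between clones among the 3 genes.

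The probe set annotated to IFITM1 and IFITM2 together cannot be assigned to either gene. It read 44.9 at time 0, 79.5 at time 12, 238.3 at time 24, 131.1 at time 72 and 144.8 at time 120 in c6, and 63.6 at time 0, 332.9 at time 12, 357.0 at time 24, 136.1 at time 48 and 244.3 at time 96 in c8. Its shape followed the IFITM1 probe set, with which its log2 values correlated at r = 0.965 over 17 arrays, against 0.887 with the IFITM2 probe set. Its late mean was 1.40 above time 0 (2.64-fold). The suffix _x_at, which this probe set shares with those of IFITM2 and IFITM3, marks probes that can also read related transcripts, so the IFITM probe sets may share signal.

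**Figure D2:**
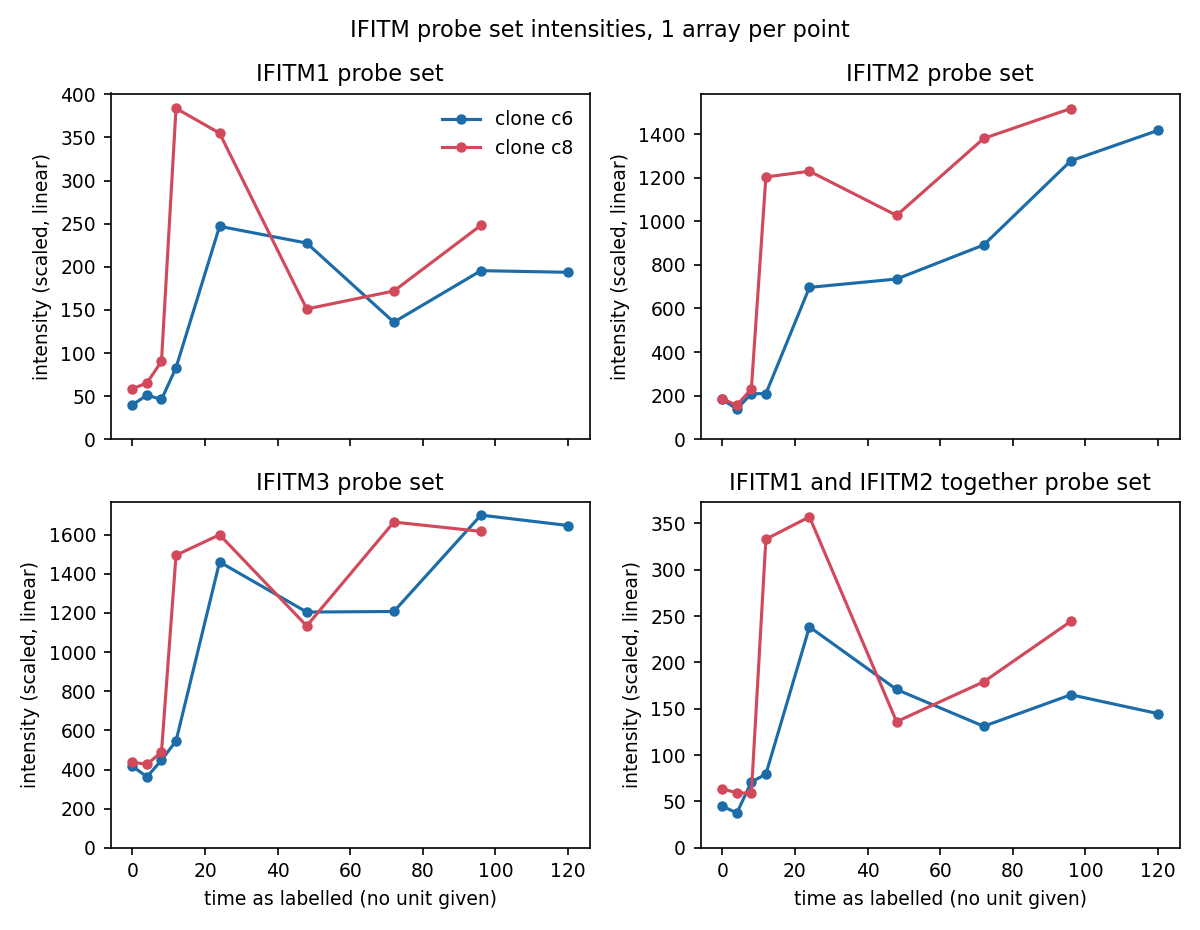
Scaled intensity (linear axis from 0) of each IFITM probe set against the labelled time, 1 array per point, for clone c6 (blue) and clone c8 (red). All 4 probe sets are low up to time 8 and higher from time 24 on in both clones, and at time 12 clone c8 is already high while clone c6 is not.

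All 4 probe sets had every array from time 24 on above every array of times 0, 4 and 8 in both clones, as did 649 of all 13675 genes tested (4.75%). The genes were chosen from these values, so nothing is read from that count. The clones differed in when the change appeared. In clone c8 the 3 genes had first passed a 2-fold difference from time 0 at time 12, when 3.67% of all genes were 2-fold or more higher in that clone. In clone c6 they first passed it at time 24, when 4.42% of all genes had done so, and at time 12 the log2 difference from time 8 to time 12 was 0.67 for IFITM1, 0.00 for IFITM2 and 0.28 for IFITM3. Between the same times clone c8 changed by 1.91, 2.30 and 1.58. NOTCH3 and its target HEYL also first passed 2-fold at time 24 in c6 and time 12 in c8, whereas the direct NOTCH targets HES1 and HEY1 had passed it at time 4 in both clones.

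Before time 12 the IFITM readings stayed under the 2-fold mark. The log2 change from time 0 to time 4 was 0.26 in c6 and 0.12 in c8 for IFITM1, -0.36 and -0.23 for IFITM2, and -0.19 and -0.04 for IFITM3. At time 8 it was 0.15 and 0.51 for IFITM1, 0.18 and 0.29 for IFITM2, 0.10 and 0.16 for IFITM3, and 0.52 and -0.09 for the probe set of IFITM1 and IFITM2 together. HEY1, a transcriptional repressor induced directly by NOTCH, read 30.0 at time 0 and 552.8 at time 4 in c6, and 71.4 and 2258.7 in c8. The early mean of the IFITM genes over both clones was 0.72, 0.44 and 0.36 above time 0 for IFITM1, IFITM2 and IFITM3, with SDs of 0.876, 1.09 and 0.702 over 6 arrays. Those spreads are larger than the means, and time 12 of clone c8 was the highest of the 6 arrays for each gene. Without that array the early means were 0.365, 0.015 and 0.077. For IFITM2 the early mean was -0.001 in c6 and 0.89 in c8.

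After time 24 the genes differed in direction. From time 24 to the late mean IFITM1 differed by -0.41 in c6 and -0.87 in c8, and the probe set of IFITM1 and IFITM2 together by -0.57 and -0.92. IFITM2 differed by 0.43 and 0.07, and IFITM3 by -0.11 and -0.14. Of the 283 genes that were 2-fold or more above time 0 at time 24 in both clones, 162 (57.2%) had a late mean below time 24 in both clones, as IFITM1 and IFITM3 did, and 32 (11.3%) had one above it in both, as IFITM2 did. Within clones the late arrays had an SD of 0.347 for IFITM1, 0.348 for IFITM2 and 0.294 for IFITM3 on this scale. The differences of IFITM3, and that of IFITM2 in c8, were smaller than these. The time 24 value is 1 array a clone, so these directions were measured on few arrays.

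**Figure D3:**
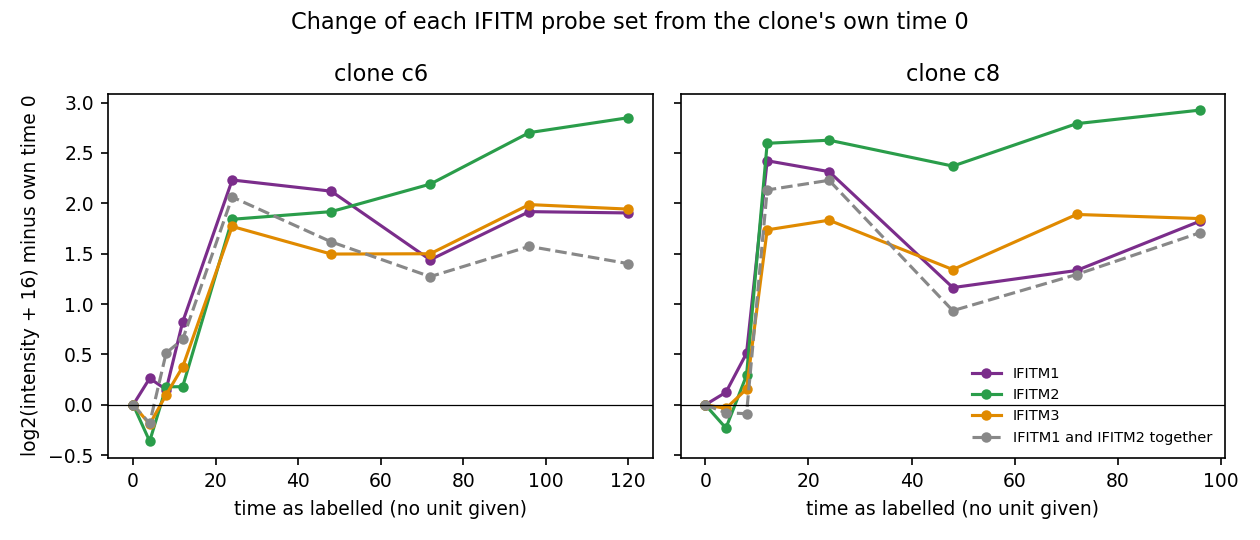
Change of each IFITM probe set from its clone's own time 0, as a difference of log2(intensity + 16), against the labelled time, in c6 (left) and clone c8 (right), 1 array per point. IFITM2 (green) ends highest in both clones, while IFITM1 (purple) and the probe set of IFITM1 and IFITM2 together (dashed grey) are lower late than at time 24.

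Ordered by the mean of the 2 clones, IFITM1 was highest at time 24 (300.9 ± 76.4, SD, n = 2), followed by time 12 (233.3 ± 212.6) and time 96 (221.8 ± 37.2), and these 3 overlapped. IFITM2 was highest at time 120 (1416.7, clone c6 only) and time 96 (1397.2 ± 169.5, SD, n = 2), followed by time 72 (1135.7 ± 345.6), and the ranges of neighbouring times overlapped down to time 8. Times 8, 0 and 4 of IFITM2 stood in that order without overlap, at 220.0 ± 15.6, 184.4 ± 2.05 and 147.4 ± 12.1 (SD, n = 2). IFITM3 was highest at time 96 (1658.1 ± 58.7, SD, n = 2) and lowest at time 4 (394.4 ± 45.2), where it overlapped with time 0 (427.2 ± 14.7). All 3 genes thus had their lowest readings among times 0, 4 and 8.

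Over the 8 times that both clones share, the clone c8 array was above the clone c6 array at 7 of 8 times for IFITM1, 8 of 8 for IFITM2 and 6 of 8 for IFITM3. The mean log2 difference was 0.51, 0.61 and 0.28, with SDs over the times of 0.715, 0.784 and 0.493. The spread was larger than the mean in each, and the gap was widest at time 12. Without the time 12 array of either clone, which removes that pair, the mean differences were 0.29, 0.35 and 0.12.

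Over the whole course the 3 genes had similar patterns. With the mean of each clone removed, log2 values correlated at r = 0.986 between IFITM2 and IFITM3, 0.931 between IFITM1 and IFITM3 and 0.890 between IFITM1 and IFITM2 (17 arrays). These points share arrays, scaling and the common course over time, and the probe sets may share transcripts, so the coefficients describe likeness of pattern only. From time 24 on the likeness was lower: IFITM1 and IFITM2 correlated at -0.318 in c6 (5 arrays) and 0.33 in c8 (4 arrays), IFITM1 and IFITM3 at 0.254 and 0.564, and IFITM2 and IFITM3 at 0.738 and 0.87. By the same measure, the 5 genes most like IFITM1 were FAM86B2-DT (r = 0.968), KIF26B, a kinesin family member (0.967), ADAMTS16 (0.959), CTHRC1, a secreted protein of collagen-rich tissue (0.959), and DNM3, a dynamin (0.958). Those most like IFITM2 were BCAR3, an adaptor of adhesion signalling (0.989), PPP2R2B, a phosphatase subunit (0.980), RAB7B, a GTPase of late endosomes (0.980), SLITRK6 (0.979) and TPM1, a tropomyosin of actin filaments (0.978). Those most like IFITM3 were PPP2R2B (0.980), CALD1, an actin-binding protein (0.978), CRABP2, which carries retinoic acid (0.976), TMEM100 (0.972) and BCAR3 (0.972). Among 13672 genes, 138, 176 and 190 had r of 0.9 or more with IFITM1, IFITM2 and IFITM3, and the median gene had r of 0.04, 0.02 and 0.03. None of the 5 genes named for each member belongs to the interferon lists used here. The interferon pathway lists hold only 70 of the 13675 genes tested, so that absence does not set the named genes apart. Beyond the 5 named genes, the highest r with IFITM3 was 0.946 for JAK1 among 15 receptor and JAK-STAT genes. It was 0.913 for CMPK2 among 41 other interferon-stimulated genes and 0.971 for B2M among 8 class I MHC genes. The median r of these lists with IFITM3 was much lower, at 0.134, 0.361 and 0.307.

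The question put to the other genes was whether the pathway that is known for controlling IFITM genes changed over the same times. Of 95 listed genes of interferon receptors, JAK-STAT signalling, interferon regulatory factors, nucleic acid sensors and interferon-stimulated genes, 70 were bright enough to test. Between late and start, 8 rose and 0 fell (limma, Benjamini-Hochberg adjusted p under 0.05 over 13675 genes), which is 11.4% of those tested against 6.94% of all genes. Among all genes 5.21% rose and 1.73% fell. At an unadjusted p under 0.05 there were 15 of the 70, against 2509 of all 13675 genes. The median log2 change of the 70 was 0.14 and that of all genes 0.02. The call rests on time 0: with the time 0 array of clone c6 left out the count was 1, and with that of clone c8 left out it was 0. Over all genes, 346 and 311 rose in these same 2 fits in place of 712, and 47 and 62 fell in place of 237. With phase means in place of time terms and clone c6 alone the count was 2, and with clone c8 alone 0.

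Interferons themselves, the ligands of the pathway, were dim: 3 of the 18 with a probe set passed the intensity filter. In limma, late against start, 0 of 3 were called, against 6.94% of all genes, and 0 of 3 had an unadjusted p under 0.05. So few genes do not stand apart from that share. The summed intensity of the 18 was 85.6 to 89.6 at time 0 and 76.0 to 133.3 late. Among receptors and JAK-STAT genes, 2 of 15 rose and 0 fell (13.3%, against 6.94% of all genes). JAK1, the kinase on both type I and type II interferon receptors, read 555.1 at time 0 and 933.7 ± 40.4 late (SD, n = 3) in c6, and 585.3 and 887.5 ± 38.2 in c8. Its change was 0.66 ± 0.12 (SE; limma adjusted p = 0.00206), and its values correlated with IFITM3 at r = 0.946. IRF9, the DNA-binding subunit of the complex that recognises the response element, read 33.7 and 30.9 at time 0 and 65.6 ± 6.45 and 58.4 ± 10.9 late (SD, n = 3). It rose by 0.68 ± 0.13 (SE; limma adjusted p = 0.00393).

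IRF9 differed from the IFITM genes in its timing. It was already 64.5 at time 4 in c6 and 49.6 in c8, and the early phase was 0.71 ± 0.13 (SE) above start (limma adjusted p = 0.0121). Late against early its difference was -0.02 ± 0.11 (SE; limma adjusted p = 0.957). In the early phase 2 of the 70 pathway genes rose, IRF9 and IFI44L, and 0 fell (2.86%, against 2.01% of all genes, 1.29% that rose and 0.724% that fell). With either time 0 array left out that count was 0, and it was also 0 without the clone term. Over all genes, 24 rose without the time 0 array of clone c6 and 38 without that of clone c8, in place of 176.

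Interferon regulatory factors and sensors gave 0 calls of 14 late against start in limma, with 1 of 14 at an unadjusted p under 0.05. Of all genes 6.94% were called, and 2509 of 13675 had an unadjusted p under 0.05. IRF1, an interferon-induced activator, differed by 0.00 ± 0.18 (SE; limma adjusted p = 0.995). The 4 with the smallest p were TBK1 (-0.44), STING1 (0.44), RIGI (0.38) and IRF4 (0.29), with limma adjusted p from 0.143 to 0.575. IRF7, the regulator that amplifies an interferon response, read between 1.4 and 18.1 on all arrays and was below the filter.

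Among other interferon-stimulated genes 6 of 41 rose and 0 fell late against start (14.6%, against 6.94% of all genes). IFI44L rose by 0.89 ± 0.17 (SE; limma adjusted p = 0.00358), from 21.7 to 61.0 ± 8.48 in c6 and from 2.9 to 15.9 ± 3.13 in c8 (late mean ± SD, n = 3). GBP2, a guanylate-binding protein, rose by 0.98 ± 0.21 (adjusted p = 0.00747) and CMPK2, a mitochondrial nucleotide kinase, by 0.69 ± 0.16 (limma adjusted p = 0.0115). IFIT1, an RNA-binding antiviral protein, rose by 1.40 ± 0.31 (limma adjusted p = 0.0105), but from readings of 1.8 and 0.6 to late means of 29.9 ± 19.9 and 32.9 ± 7.97, which is dim on these arrays. The other two called, named after their values were seen, were the ubiquitin ligase DTX3L (0.69) and the chemokine CXCL10 (1.15), the latter again from readings of 5.0 and 2.3.

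Several standard reporters of an interferon response did not pass the test. ISG15, a ubiquitin-like protein, differed by 0.36 ± 0.20 (SE; limma adjusted p = 0.359) and read 48.9 ± 12.7 and 45.3 ± 2.91 late against 35.0 and 30.7 at time 0. IFI6 differed by 0.17 ± 0.21 (limma adjusted p = 0.740) and BST2, which tethers budding virus, by 0.78 ± 0.46 (limma adjusted p = 0.403). BST2 read 1.0 and 1.2 at time 0, 172.4 at time 12 in c8 and 72.3 at time 24 in c6, the same arrays at which the IFITM genes first stood high. MX1 and IFI27 were below the filter, with highest readings of 13.7 and 18.1. IFI44 read 181.2 and 226.7 at time 0, 507.4 and 375.5 at time 12 and 172.9 ± 26.3 and 153.8 ± 34.4 late, and differed by -0.30 ± 0.19 late against start (limma adjusted p = 0.436).

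Late against early, 7 of the 70 pathway genes rose and 2 fell (12.9%, against 5.18% of all genes, 3.77% that rose and 1.41% that fell). The 2 that fell were IFI44, by 1.04 on the log2 scale (SE 0.15; limma adjusted p = 0.000442), and USP18, an enzyme that removes ISG15 and restrains the interferon receptor, by 0.70 (SE 0.18; limma adjusted p = 0.033). JAK1 (0.49), DTX3L (0.80), GBP2 (0.66), CXCL10 (0.96), GBP1 (0.84), IFIT1 (0.96) and PARP9 (0.41) rose. The IFITM genes differed by 0.92, 2.04 and 1.32 between these phases for IFITM1, IFITM2 and IFITM3. The comparison keeps time 12 of clone c8 in the early phase. Its replicates are the successive times of a phase, and whether these were separate cultures is not stated.

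**Figure D4:**
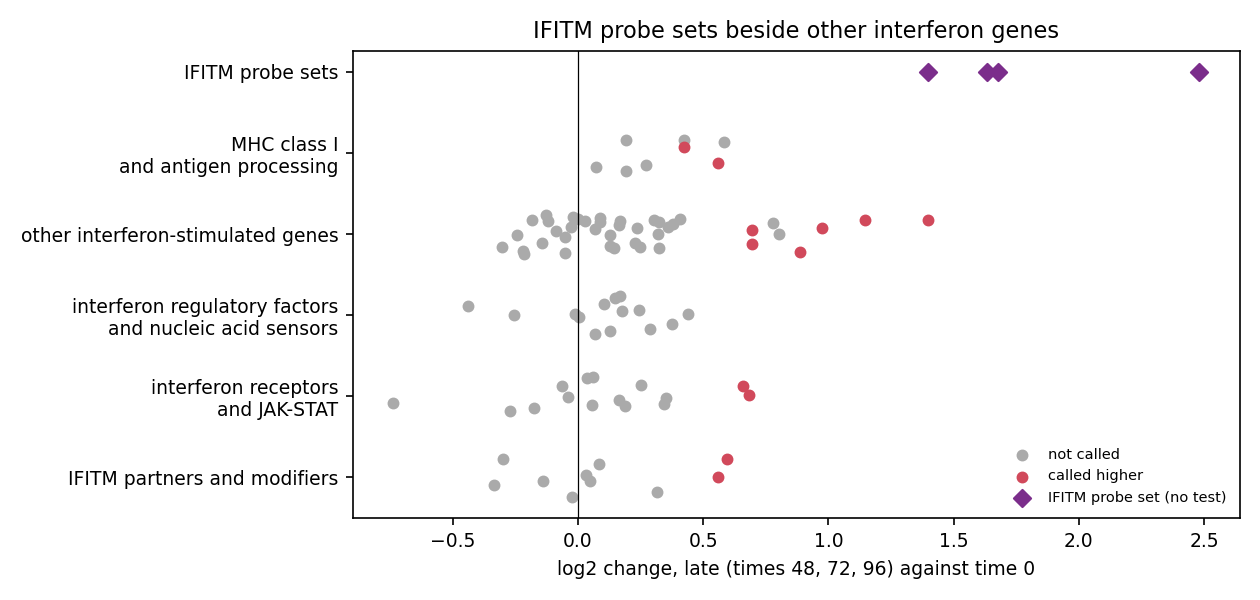
Log2 change late (times 48, 72 and 96) against time 0 for each tested gene of 5 lists (circles; red, called higher by limma; grey, not called) and for the 4 IFITM probe sets (purple diamonds, no test). The IFITM values lie between 1.40 and 2.48, and most listed genes lie between -0.5 and 0.5. Vertical scatter within a row has no meaning.

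Class I MHC genes, which present antigen and are also induced by interferon, gave 2 of 8 higher and 0 lower late against start. This is 25%, against 6.94% of all genes. It was 0 of 8 higher with either time 0 array left out or without the clone term. B2M, the light chain shared by all class I molecules, read 2207.3 at time 0 and 2941.4 ± 202.6 late (SD, n = 3) in c6, and 2347.5 and 3194.3 ± 170.0 in c8. It rose by 0.43 ± 0.08 (SE; limma adjusted p = 0.0036) and, at r = 0.971 with IFITM3 and 0.969 with IFITM2, had the pattern most like theirs among the interferon and class I MHC lists. FN1, a mesenchymal marker, was as close to IFITM2 (0.969). HLA-F rose by 0.56 ± 0.16 (SE; limma adjusted p = 0.0418). TAP2, a peptide transporter subunit, differed by 0.58 ± 0.25 (limma adjusted p = 0.216).

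Of the interferon-stimulated genes, 50 have a promoter in the RefSeq table, and the response element core occurred in 34 of them (68.0%), against 4.38% of all genes with a promoter there. Of those tested, 25 held the pattern, as IFITM1 and IFITM3 do, and 4 of these rose and 0 fell late against start, with a median log2 change of 0.17. Of the 10 without it 1 rose and 0 fell, with a median of 0.21. Over all genes tested 5.21% rose and 1.73% fell. Of all 41 interferon-stimulated genes tested 6 rose, which became 1 without the time 0 array of clone c6 and 0 without that of clone c8. Whether the pattern goes with the change was not tested.

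The proteins that act on or with IFITM proteins showed 2 of 10 higher and 0 lower late against start (20%, against 6.94% of all genes). That count was 0 with either time 0 array left out, without the clone term or with probe sets averaged. SETD7, which methylates IFITM3, rose by 0.56 ± 0.12 (SE; limma adjusted p = 0.00868), and CD9, a tetraspanin, by 0.60 ± 0.15 (limma adjusted p = 0.0271). SETD7 was already 0.77 ± 0.12 above start early (limma adjusted p = 0.00348), the 1 such call among the 10 (10%, against 2.01% of all genes). That call was lost without the time 0 array of clone c6, without the clone term or with probe sets averaged. ZMPSTE24, the protease that works with IFITM proteins in restriction, differed by -0.30 ± 0.13 (limma adjusted p = 0.207), and CD81, a tetraspanin that binds IFITM1, by 0.05 ± 0.14 (limma adjusted p = 0.897). Of the relatives with the same CD225 domain, TMEM91, PRRT2 and SYNDIG1 were tested and 0 of 3 were called in limma, with 0 of 3 at an unadjusted p under 0.05. Over all genes 6.94% were called and 2509 of 13675 had such a p, so 0 of 3 does not set them apart. IFITM10 read at most 23.4 and was below the filter. Among other restriction and entry factors 1 of 8 rose and 0 fell (12.5%, against 6.94% of all genes). The 1 was NCOA7, whose short form is interferon-induced and acts in endosomes. It rose by 1.51 ± 0.23 (SE; limma adjusted p = 0.000477), from 54.9 and 57.1 to 199.4 ± 1.51 and 183.0 ± 41.9 (SD, n = 3).

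The genes next to the IFITM cluster were compared in the same way. Of the 4 nearest protein-coding genes with a probe set on each side, 7 passed the filter. In limma, 0 of these 7 were called late against start, against 6.94% of all genes. At an unadjusted p under 0.05 there were 0 of 7, against 2509 of all 13675 genes. A count of 0 among so few does not set them apart from all genes. Their log2 changes ran from -0.12 for SIGIRR to 0.35 for PGGHG, with limma adjusted p from 0.45 to 0.988. SIRT3 and BET1L on the IFITM2 side read between 95.4 and 145.3 on all 17 arrays, and SIGIRR on the IFITM3 side between 222.2 and 375.5.

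Between clones, 4 of the 70 pathway genes were higher and 8 lower in c8 (17.1%, against 21.7% of all genes, 11.4% higher and 10.2% lower). IFI44L was lower in c8 by 1.03 on the log2 scale and CMPK2 higher by 0.48 (limma adjusted p = 1.36e-05 and 0.00265). JAK1 differed by 0.06 ± 0.07 and IRF9 by -0.14 ± 0.08 (SE; limma adjusted p = 0.626 and 0.246).

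Markers of other cell states moved over the same times, and their part in the IFITM values was not tested. Late against start 5.21% of all genes rose and 1.73% fell. As for the lists above, these calls rest on 1 time 0 array in each clone. Of 13 mesenchymal markers 8 rose and 1 fell (TWIST1). Among them FN1 rose by 2.98, LGALS1 by 2.67 and S100A4 by 2.61 (limma adjusted p = 8.88e-06, 1.68e-05 and 2.82e-06), and all 3 first passed 2-fold at time 24 in c6 and time 12 in c8, as the IFITM genes did. Others did so at other times, CDH11 at time 12 in c6 and time 8 in c8, SNAI2 at time 12 in both, THY1 at times 48 and 12 and ANXA1 at time 72 in both. Of 6 fibroblast markers 3 rose (COL3A1, LUM and DCN) and 1 fell (PDGFRA), while COL1A1 and COL1A2 were not called. The summed intensity of the 7 with a probe set was 933.6 to 1301.5 at time 0 and 4690.9 to 8489.1 late, and most of that sum was COL3A1, which read 8.4 and 10.2 at time 0 and 5075.3 ± 1621.6 and 4617.0 ± 319.5 late (SD, n = 3). Of 7 adrenergic markers of neuroblasts 1 rose (STMN2) and 2 fell (PHOX2A and DBH). DBH, the enzyme that makes noradrenaline, fell by 2.19. The summed intensity of 5 immune cell markers was 24.4 to 38.1 at time 0 and 14.5 to 56.8 late, no single one read above 20.3 late, and the only 1 tested was not called. That of 5 endothelial markers was 44.1 to 57.0 and 41.2 to 68.5. In bulk RNA, more cells of a type and more RNA per cell cannot be told apart.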

How the data were processed

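RNA of 17 samples was hybridised to 1-colour Affymetrix arrays. The authors deposited scaled probe set intensity values, made with MAS5 and GCOS per the submitters' processing notes, with versions and genome build not given in the sources used here. From these, log2(intensity + 16) was computed, which understates changes of dim probe sets. Each gene was read by its brightest single-gene probe set, and the 13675 of 19775 genes above the 40th percentile of mean log2 (4.68) were tested with limma 3.58.1 in R 4.3.3 (eBayes with an intensity trend, Benjamini-Hochberg over all tested genes).

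Each model held the clone as a block, which pairs times because the labels give every array its clone, and a term for each time (late against early: for each phase). Late against early, the times of a phase thus stood in as replicates. Named genes were all IFITM probe sets, the 5 genes most like each member, up to 4 genes of smallest p per list, a set of standard pathway genes, and 4 neighbours a side. Members and lists were chosen with earlier results of these data known. The test was tried on simulated data. Other pseudocounts, filters, normalizations, probe set rules, models, single clones and each array left out were tried. The number of arrays limits the precision.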

Additional observations from a re-analysis of the deposited data

How the results depend on the processing

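Over 24 settings the late minus start difference of every IFITM probe set stayed above 0, between 1.14 and 1.91 for IFITM1, 2.24 and 2.69 for IFITM2, 1.58 and 1.76 for IFITM3, and 0.98 and 1.63 for the probe set of IFITM1 and IFITM2 together. The lowest values of IFITM1 (1.14) and of the shared probe set (0.98) came with a pseudocount of 64, which lowers differences of dim probe sets by construction. The early minus start difference of IFITM2 was -0.001 in clone c6 alone, and between -0.001 and 0.885 with single arrays left out, against 0.365 to 1.019 for IFITM1 and 0.077 to 0.619 for IFITM3. Averaging probe sets changes no member value, since each gene has 1 of its own.

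Interferon pathway counts varied more. The fits in a single clone also used phase means in place of time terms. Late against start, the 8 that rose became 2 in clone c6 alone, 0 in clone c8 alone, and between 0 and 8 with single arrays left out, and the 0 that fell became at most 1. Early against start, the 2 that rose became 1 with a pseudocount of 64, with no filter or with phase means, 0 without the replicate block (the clone term) or in either clone alone, and 0 to 3 with single arrays left out, and the 0 that fell became 1 with probe sets averaged. Late against early, the 7 that rose became 4 with the filter at the 60th percentile and 1 in clone c8 alone, and the 2 that fell became 1 with probe sets averaged, with no filter, without the block, without the intensity trend and in either clone alone, and 1 to 2 with single arrays left out. Clone c8 against clone c6, the 4 that were higher became 7 with probe sets averaged. Without the block, counts over all genes called higher late against start were 430 in place of 712. The cause of these differences was not tested.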
